A study of Mus musculus with 9 samples.

Results

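The Irx and Dlx homeobox clusters were examined as 4 regions of the mouse genome (GRCm38) in which CTCF binding had been measured: Irx1, Irx2 and Irx4 on chromosome 13, Irx3, Irx5 and Irx6 on chromosome 8, Dlx1 and Dlx2 on chromosome 2, and Dlx5 and Dlx6 on chromosome 6. A peak belonged to a cluster if it overlapped the stretch between the first and the last base of the cluster's genes in the GENCODE M21 annotation, extended by 20 kb on each side. This rule took 458 of 225769 merged CTCF peaks. Irx1-Irx4 held 288 peaks (chr13:71937921-73289608), Irx3-Irx6 held 160 (chr8:91778525-92700956), Dlx1-Dlx2 held 3 (chr2:71508113-71566754) and Dlx5-Dlx6 held 7 (chr6:6843334-6902085). The rule used gene positions only and no measured value, but the clusters were chosen with earlier results of these data known.

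The cells were primary female neural stem cells (NSCs) grown from E14.5 cortices of C57Bl/6 embryos, and CTCF was precipitated with an antibody and sequenced. Libraries came from 3 lines of Smchd1 MommeD43-GFP/MommeD43-GFP, a CRISPR copy of the MommeD43 point mutation on the GFP-tagged allele, from 2 lines of Smchd1 del/del, and from 3 lines of Smchd1 GFP/GFP, the tagged control. The null cells were made in culture from floxed cells by a retrovirus that carried Cre and puromycin resistance, followed by drug selection, and they lack the GFP tag that the MommeD43-GFP and control cells share. The deletion, the virus with its selection and the missing tag cannot be told apart in these comparisons. One control line also gave an input library, whose values were not analysed here. RNA was not measured in these libraries, so neither NSC markers nor the loss of Smchd1 could be checked from them.

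The Iroquois (Irx) genes and the distal-less (Dlx) genes encode homeodomain transcription factors that pattern the embryo. Dlx1, Dlx2, Dlx5 and Dlx6 act in the ventral forebrain, where they promote the formation of GABAergic interneurons, and Irx genes help to divide the neural tube and other tissues, such as heart and limb, into territories. Irx genes lie in clusters of 3 separated by long stretches without coding genes, and Dlx genes in closely spaced pairs transcribed towards each other. CTCF is a zinc finger protein that binds a long motif and, with cohesin, anchors chromatin loops in a way that depends on the direction of the motif. SMCHD1 is a non-canonical SMC protein that silences clustered genes and the inactive X chromosome.

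Sequences in the peaks of these clusters that match a CTCF motif are shown first. Whether CTCF binds at these copies was not tested. A strict form of the motif, called the core CTCF motif here, occurred in only 6 of the 458 peaks, each with a single copy. All 6 are printed with the motif in capitals, 5′ to 3′ on the strand that carries it, from the GRCm38 reference. The strand and position are given after each name.

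Irx1-Irx4, tallest peak of the cluster, plus strand, chr13:73160399-73160428: cgcggacggCCAGCAGAGGGCgcgctgcct
Irx1-Irx4, second tallest, minus strand, chr13:73033245-73033274: ccagcccggCCAGCAGGTGGCtctgcctca
Irx1-Irx4, between Irx1 and Irx2, plus strand, chr13:72370322-72370351: caatgatggCCAGCAGAGGGCactagatag
Irx1-Irx4, between Irx2 and Irx4, minus strand, chr13:72848273-72848302: ggggagttgCCAGCAGGGGGCggatgtgtt
Irx3-Irx6, between Irx3 and Irx5, plus strand, chr8:92116051-92116080: gcgagctctCCAGCAGAGGGCactggtccc
Dlx1-Dlx2, upstream of Dlx2, minus strand, chr2:71548017-71548046: ctacactgtCCACCAGGTGGCgccacaaag

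A looser form, CCNNNAGNNGGC on either strand, of which every core copy is also a copy, was found in 45 peaks of Irx1-Irx4 (15.6%), 31 of Irx3-Irx6 (19.4%), 2 of Dlx1-Dlx2 and 1 of Dlx5-Dlx6, against 24.5% of all 225769 peaks. The core form was in 1.39% of the Irx1-Irx4 peaks and 0.625% of the Irx3-Irx6 peaks, against 3.79% of all peaks. Both forms are commoner in tall peaks: of all peaks with a mean level of 2 or more, 27.5% carried the core form and 81.0% the looser one. These shares are not adjusted for the length searched. The median length was 3750 bp for peaks of that level and 750 bp for all peaks, against 600 bp in Irx1-Irx4 and 900 bp in Irx3-Irx6. The tallest peak of the 4 clusters, in an intron of Irx5, had no core copy and 3 looser copies, all on the minus strand and printed because this peak is the reference point of the Irx3-Irx6 cluster.

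Irx5 intron, minus strand, chr8:92364566-92364595: ctccgggaaCCAGTAGGCGGCgcccttcct
Irx5 intron, minus strand, chr8:92366230-92366259: cctcgggctCCAAAAGAAGGCcctgtgggg
Irx5 intron, minus strand, chr8:92367112-92367141: agcatactgCCTGCAGGGGGCaatggcgga

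The sites beside Irx2 are added because the tall peaks that hold them are set apart by genotype below. The tall peak just past the end of Irx1, where null cells stood furthest above control, holds neither form.

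Irx2, 3′ side, plus strand, chr13:72640291-72640320: cttaggaacCCAGTAGGAGGCttccctgca
Irx2, 5′ side, minus strand, chr13:72624152-72624181: tgcgcccctCCAGGAGGTGGCctagctggc

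The values that follow are levels in log2 rpm, where rpm is the reads counted per M sequenced, over the whole peak and not divided by its length, so that long peaks tend to be tall. Each genotype has 1 pooled value per peak, the authors' mean over its libraries. The table therefore holds no spread between lines, and no difference between genotypes could be tested. The error given with a difference is a standard error from read counting alone, which came from about 49.2 M reads per library for MommeD43-GFP, 50 M for Smchd1 del/del and 41.7 M for the control. At the median peak it was 0.14, 0.17 and 0.15 for a single level in MommeD43-GFP, null and control. Over all peaks, the median difference was 0.01 for MommeD43-GFP minus control, −0.04 for null minus control and 0.03 for MommeD43-GFP minus null. The first pair of comparisons shares the control libraries.

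The Irx regions were dense in peaks, which were weaker than those of the whole table in Irx1-Irx4 and not in Irx3-Irx6. Irx1-Irx4 had 213 peaks per Mb and Irx3-Irx6 173 per Mb, against 82.8 per Mb over the genome, and the 1 Mb on either side of them held 148 and 200 peaks at Irx1-Irx4 and 147 and 148 at Irx3-Irx6. Dlx1-Dlx2 had 51.2 peaks per Mb and Dlx5-Dlx6 119. The median level was −0.75 in Irx1-Irx4, −0.34 in Irx3-Irx6, 0.34 in Dlx1-Dlx2 and 0.44 in Dlx5-Dlx6, against −0.53 over all peaks. In Irx1-Irx4, 266 of 288 peaks were intergenic, and 128 of 160 were in Irx3-Irx6, as the gaps between neighbouring genes are 665 kb (Irx1 to Irx2), 626 kb (Irx2 to Irx4), 556 kb (Irx3 to Irx5) and 298 kb (Irx5 to Irx6). No peak lay within the stretch from Dlx1 to Dlx2 itself, and the 3 peaks counted there were all in its 20-kb flanks. Levels of 2 or more were reached by 5 peaks of Irx1-Irx4, 9 of Irx3-Irx6, none of Dlx1-Dlx2 and 1 of Dlx5-Dlx6.

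**Figure D1:**
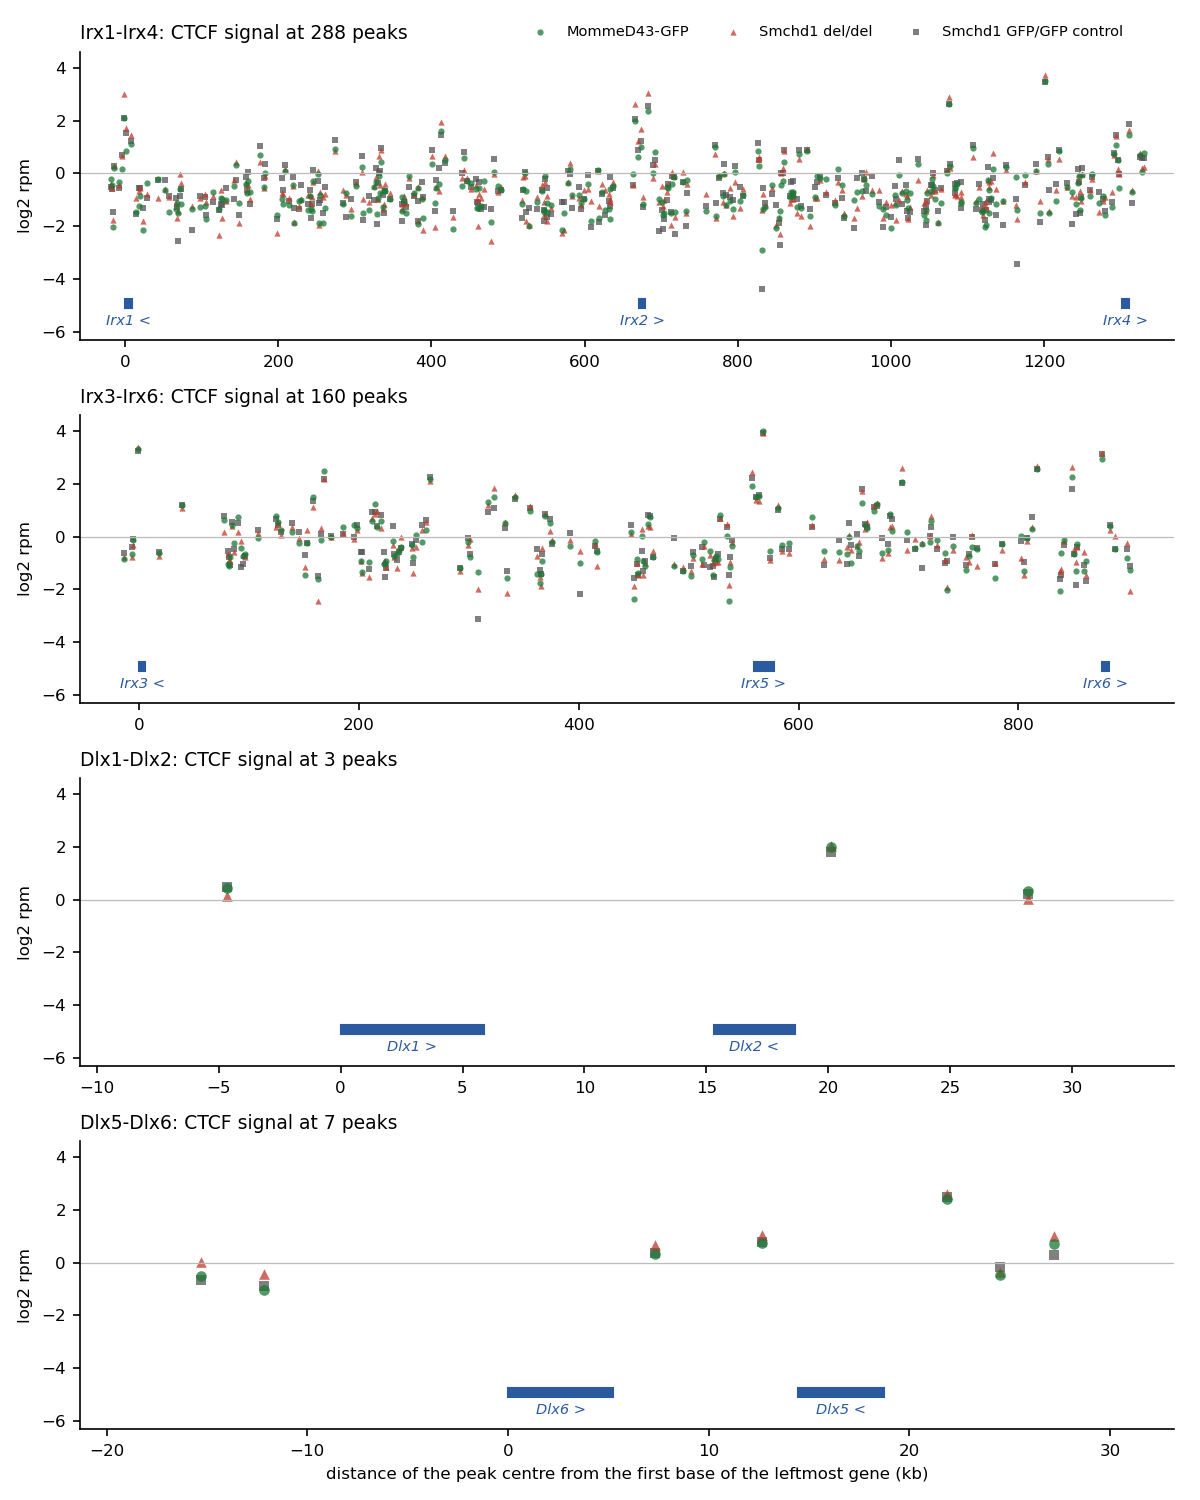
CTCF signal (log2 rpm, y axis) at each peak against the distance of its centre from the first base of the leftmost gene in kb (x axis), for the 4 clusters. Circles are MommeD43-GFP, triangles Smchd1 del/del and squares the Smchd1 GFP/GFP control, each a pooled value; blue bars are the genes with an arrow for strand. Most Irx peaks lie below 0, the tall ones stand beside Irx1, Irx2, Irx3, Irx5 and Irx6 or alone between genes, and each Dlx pair has a single peak at about 2 or above.

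In Irx1-Irx4, the tall peaks beside Irx1 and Irx2 had more CTCF signal in Smchd1 del/del cells than in either other genotype. Irx1 and Irx2 are neighbouring Iroquois genes with overlapping expression in many tissues. The peak just past the 3′ end of Irx1 (chr13:71955601-71957850), at the start of the unnamed gene Gm40999, had a level of 2.11 in MommeD43-GFP and 3.00 in null cells, against 2.09 in control. The null was 0.91 ± 0.08 above control, a 1.88-fold difference, and MommeD43-GFP was 0.02 ± 0.09 above control. The null level thus stood apart, while MommeD43-GFP and control were within counting error of each other.

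The peak upstream of Irx2 (chr13:72622801-72625950, 2.87 kb from its start) had 2.00 in MommeD43-GFP and 2.64 in null, against 2.05 in control. The peak downstream of Irx2 (chr13:72638401-72642150) had 2.36 in MommeD43-GFP and 3.05 in null, against 2.56 in control. Null minus control was 0.59 ± 0.09 at the upstream peak and 0.49 ± 0.07 at the downstream peak, and MommeD43-GFP minus control was −0.05 ± 0.09 and −0.20 ± 0.08. These peaks carry the looser sites printed above for the 5′ and 3′ sides of Irx2.

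The remaining tall peaks, which stand far from the genes and carry a core motif each, differed less. The tallest of Irx1-Irx4 (chr13:73157701-73161300, 99.2 kb before Irx4) had 3.51 in MommeD43-GFP and 3.72 in null, against 3.46 in control. The second (chr13:73032601-73035000) had 2.63 in MommeD43-GFP and 2.91 in null, against 2.62 in control. Null minus control was 0.25 ± 0.06 and 0.29 ± 0.07 at these peaks, and MommeD43-GFP minus control was 0.04 ± 0.05 and 0.01 ± 0.07. Counting error understates how far peaks ordinarily differ. Over all peaks with a mean level of 2 or more, the standard deviation across peaks was 0.27 for null minus control and 0.17 for MommeD43-GFP minus control.

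All 5 peaks of Irx1-Irx4 at a level of 2 or more were thus highest in the null, where 47.1% of the 18144 peaks of that level in the whole table were. Null cells were at least 1.5-fold above control at 2 of the 5, against 3.34% of peaks of that level, and MommeD43-GFP was at least 1.5-fold below the null at 3 of the 5, against 0.667%. Summed over the 5 peaks, the signal was 31.0 rpm in MommeD43-GFP and 43.2 rpm in null, against 31.5 rpm in control. The level of 2 and the 1.5-fold limit for these counts were picked with the values in view, and no test stands behind them. The counts all use the same null values at the same 5 peaks, so they are not separate observations.

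The weaker peaks over Irx1 and Irx2 themselves kept the null on top. The peak inside Irx1 (chr13:71958751-71960550), over an annotated internal start, had 0.84 in MommeD43-GFP and 1.73 in null, against 1.55 in control. Here MommeD43-GFP was the genotype that stood apart, 0.71 ± 0.12 below control and 0.90 ± 0.12 below the null. The peak just upstream of Irx1 had 1.13 in MommeD43-GFP and 1.47 in null, against 1.25 in control. The peak at the start of Irx2, which it shares with the divergent gene Gm20554, had 0.64 in MommeD43-GFP and 1.24 in null, against 0.90 in control. The peak inside Irx2 had 1.0 in MommeD43-GFP and 1.67 in null, against 1.24 in control, and MommeD43-GFP minus null was −0.67 ± 0.12. At each of these 4 peaks the order was null, then control, then MommeD43-GFP, but some steps of it were small beside counting error. Null minus control was 0.19 ± 0.11 inside Irx1 and 0.23 ± 0.12 upstream of it, and MommeD43-GFP minus control was −0.11 ± 0.12 upstream of Irx1 and −0.26 ± 0.13 at the start of Irx2.

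Irx4, the last gene of the cluster and best known from the ventricles of the heart, did not share this order. It had no peak within 1 kb of an annotated start. The nearest one, 3.48 kb away, had −0.55 in MommeD43-GFP and −0.04 in null, against −0.01 in control. The peak over the 3′ end of Irx4 (chr13:73267501-73270050) had 1.47 in MommeD43-GFP and 1.64 in null, against 1.87 in control. Both mutant genotypes were below control at that peak, by 0.40 ± 0.10 in MommeD43-GFP and by 0.22 ± 0.11 in null cells.

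**Figure D2:**
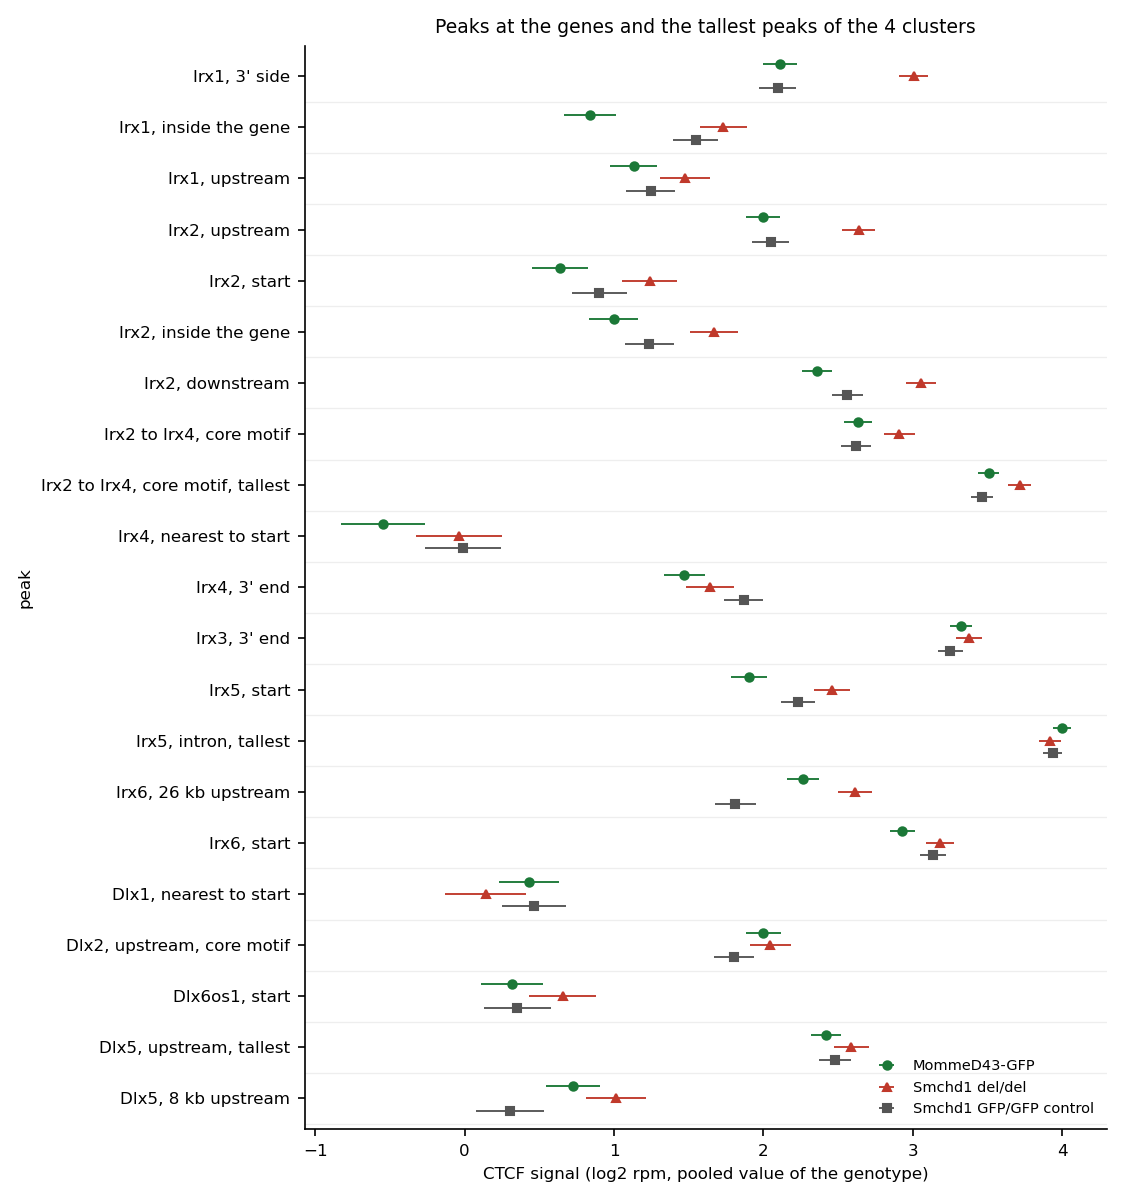
CTCF signal (log2 rpm, x axis) at the peaks on and beside the member genes and at the tallest peaks (rows), with circles for MommeD43-GFP, triangles for Smchd1 del/del and squares for the Smchd1 GFP/GFP control. Bars are 95% intervals of read counting only. The null triangle lies furthest right at all 7 peaks drawn for Irx1 and Irx2, for example 3.00 against 2.09 in control at the Irx1 3′ side, while the Irx5 intron peak has 4.0, 3.92 and 3.94.

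Across the whole of Irx1-Irx4 the picture was different, because the tall peaks are few. The median difference was −0.09 for MommeD43-GFP minus control (interval −0.17 to −0.02), −0.01 for null minus control (−0.08 to 0.10) and −0.06 for MommeD43-GFP minus null (−0.10 to −0.01). The interval comes from ranking the peaks by their difference, treats neighbouring peaks as independent and says nothing of the spread between lines. MommeD43-GFP was above control at 120 of 288 peaks (41.7%), where 50.8% of all peaks were. The flanking sequence leaned the same way, with 45.3% of peaks above control in the 1 Mb before the cluster and 43.0% in the 1 Mb after. MommeD43-GFP was lower at moderate peaks. At the 6 peaks with a mean level between 1 and 2, it was above control at 1, and the median difference was −0.30. Of all peaks between these levels, 58.1% were above control in MommeD43-GFP, with a median difference of 0.05. Among the 43 peaks with a mean level between 0 and 1, MommeD43-GFP was above control at 8 and the null at 11, and the median differences were −0.21 and −0.18, against 0.00 and −0.07 for all peaks of that band, of which 50.2% and 43.0% were above control. At or above the median level of all peaks, MommeD43-GFP was above control at 34 of 107 peaks, against 50% of such peaks in the table, and the null at 41 of 107, against 46%. Summed signal over the cluster was 228.9 rpm in MommeD43-GFP and 251.6 rpm in null, against 245.6 rpm in control.

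Along the 1352 kb of the cluster, null minus control had its highest medians in the 100-kb window that holds Irx2 and in the next one, 0.34 in both, and lay between −0.23 and 0.19 in the other windows. Within 20 kb of Irx1, Irx2 or Irx4, the 31 peaks summed to 45.8 rpm in MommeD43-GFP and 59.9 rpm in null, against 51.0 rpm in control. The 257 peaks further away summed to 183.1 rpm in MommeD43-GFP and 191.7 rpm in null, against 194.6 rpm in control. The near sum rested on the tall peaks at Irx1 and Irx2, since null minus control had a median of 0.03 over the 31 peaks, with 17 higher and 14 lower.

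**Figure D3:**
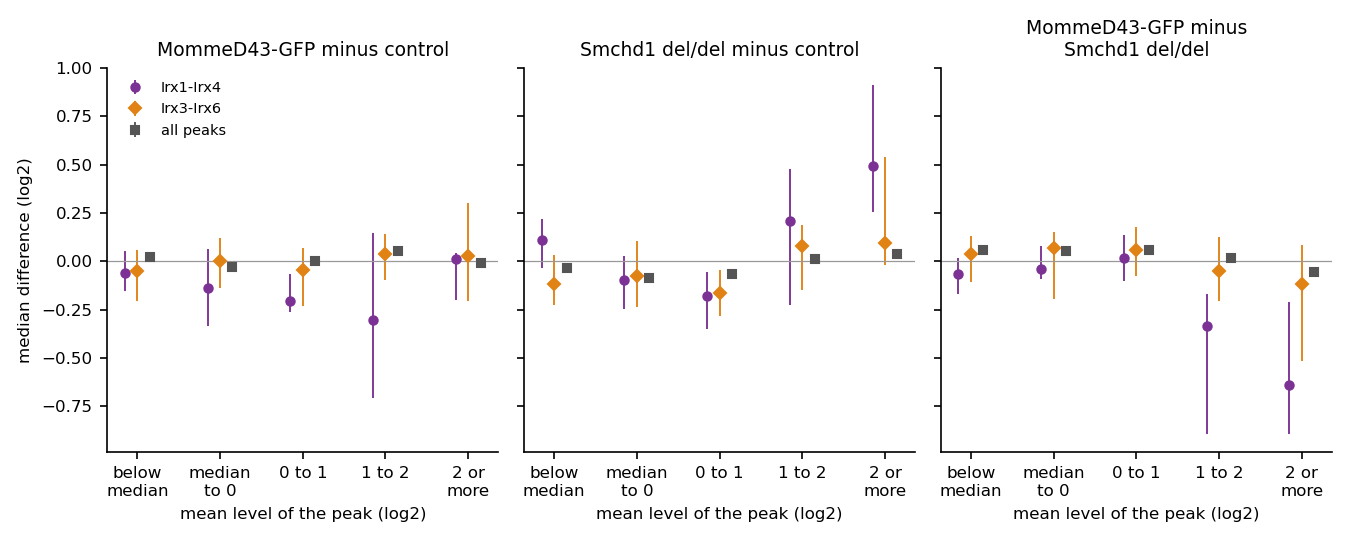
Median difference between genotypes (log2, y axis) by the mean level of the peak (x axis, log2 rpm, split at the median of all peaks, 0, 1 and 2) for Irx1-Irx4 (circles), Irx3-Irx6 (diamonds) and all peaks (squares), in the 3 comparisons. Bars are the interval of the median over peaks. All-peak medians stay close to 0 in every band, while for Irx1-Irx4 null minus control is −0.18 at levels 0 to 1 and 0.49 at 2 or more, and MommeD43-GFP minus null is −0.64 at 2 or more.

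In Irx3-Irx6, the most prominent peaks hardly differed between the genotypes. Irx3, Irx5 and Irx6 are the paralogous cluster, in which Irx3 and Irx5 act together in heart, limb and neural tube. The peak in the Irx5 intron (chr8:92363101-92369250), the tallest of the 458, had 4.0 in MommeD43-GFP and 3.92 in null, against 3.94 in control. The peak over the 3′ end of Irx3 and the start of the antisense gene Irx3os (chr8:91795801-91800000) had 3.32 in MommeD43-GFP and 3.37 in null, against 3.25 in control. At the Irx5 peak, MommeD43-GFP minus control was 0.06 ± 0.04 and null minus control −0.02 ± 0.05, and at the Irx3 peak they were 0.07 ± 0.06 and 0.12 ± 0.06.

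At the starts of Irx5 and Irx6, MommeD43-GFP was the lowest genotype. The peak at the shared start of Irx5 and the divergent long non-coding gene Crnde (chr8:92355151-92357850) had 1.90 in MommeD43-GFP and 2.46 in null, against 2.23 in control. MommeD43-GFP was 0.33 ± 0.09 below control and 0.56 ± 0.09 below the null. The peak at the start of Irx6 (chr8:92672701-92675700) had 2.93 in MommeD43-GFP and 3.18 in null, against 3.13 in control. The order at these starts was the same as at the peaks over Irx1 and Irx2, although null and control were within counting error at Irx6 (0.05 ± 0.07). How often gene starts elsewhere show this order was not counted. The peaks at the starts of Irx5 and Irx6 had 60.6% and 57.2% GC, against a median of 47.8% over all peaks.

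Away from the genes, some tall peaks of Irx3-Irx6 were higher in the null. The peak 26.2 kb before Irx6 (chr8:92645551-92648100) had 2.27 in MommeD43-GFP and 2.62 in null, against 1.81 in control. Among the 9 tall peaks of the cluster it stood furthest above control in both mutant genotypes, by 0.45 ± 0.09 in MommeD43-GFP and by 0.80 ± 0.09 in null cells. A peak 133 kb from the nearest Irx5 start (chr8:92491201-92494350) had 2.07 in MommeD43-GFP and 2.58 in null, against 2.04 in control. The peak with the cluster's single core site (chr8:92115151-92116500) had 1.30 in MommeD43-GFP and 1.20 in null, against 0.94 in control. Of the 9 peaks at a level of 2 or more, 2 were highest in MommeD43-GFP, 6 in the null and 1 in control, against 19.2%, 47.1% and 33.8% of all peaks of that level.

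Over all 160 peaks of Irx3-Irx6, the median difference was −0.02 for MommeD43-GFP minus control (interval −0.09 to 0.01), −0.10 for null minus control (−0.14 to −0.02) and 0.04 for MommeD43-GFP minus null (−0.06 to 0.10). Null cells were above control at 67 of 160 peaks, where 46.6% of all peaks were. Summed signal was 205.3 rpm in MommeD43-GFP and 208.9 rpm in null, against 207.8 rpm in control, so that the cluster's total was nearly equal in the 3 genotypes.

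Dlx1-Dlx2 carried a single clear peak. It lies 0.847 kb upstream of Dlx2 (chr2:71547601-71548800) and holds the core site printed above. Its level was 2.00 in MommeD43-GFP and 2.05 in null, against 1.80 in control. MommeD43-GFP was 0.20 ± 0.09 and the null 0.24 ± 0.10 above control, yet they turned to −0.041 and −0.019 when differences were centred on peaks of like GC content, so the direction at Dlx2 depends on that setting. The peak nearest to Dlx1 (3.91 kb away, over exons of Dlx1as and Metap1d) had 0.43 in MommeD43-GFP and 0.14 in null, against 0.46 in control. The last peak, 9.10 kb upstream of Dlx2, had 0.33 in MommeD43-GFP and 0.03 in null, against 0.23 in control. Differences between genotypes in this pair ran from −0.32 to 0.30 over the 3 comparisons.

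In Dlx5-Dlx6 the null was the highest genotype at 6 of 7 peaks, and MommeD43-GFP was below the null at all 7, where 31.5% of all peaks were highest in the null and 46.1% were lower in MommeD43-GFP than in the null. Dlx5 and Dlx6 are needed for craniofacial bones and for interneurons, and the non-coding gene Dlx6os1 runs antisense to Dlx6. The tallest peak (chr6:6884551-6885900, 2.47 kb upstream of Dlx5) had 2.42 in MommeD43-GFP and 2.59 in null, against 2.48 in control. The peak 7.72 kb upstream of Dlx5 (chr6:6889801-6891300) had 0.72 in MommeD43-GFP and 1.01 in null, against 0.31 in control. It differed most from control in this pair, with MommeD43-GFP 0.42 ± 0.15 and the null 0.71 ± 0.15 higher.

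On the Dlx6 side, the peak at the start of Dlx6os1, the nearest to Dlx6 at 6.35 kb, had 0.32 in MommeD43-GFP and 0.66 in null, against 0.35 in control. The peak in an intron of Dlx6os1 14.9 kb from Dlx6 had −0.52 in MommeD43-GFP and 0.03 in null, against −0.65 in control. The exception was a peak 5.32 kb upstream of Dlx5, with −0.45 in MommeD43-GFP and −0.36 in null, against −0.16 in control. These 7 peaks summed to 11.9 rpm in MommeD43-GFP and 14.2 rpm in null, against 11.9 rpm in control. Their median differences were −0.04, 0.31 and −0.31 for MommeD43-GFP minus control, null minus control and MommeD43-GFP minus null. A higher null sum was not confined to the pair. The 1 Mb after it summed to 58.2 rpm in null against 49.8 rpm in control, while the 1 Mb before it had 81.4 rpm against 84.5 rpm. The 7 peaks lie in a region of 58.8 kb and share libraries, so they are not 7 independent observations.

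**Figure D4:**
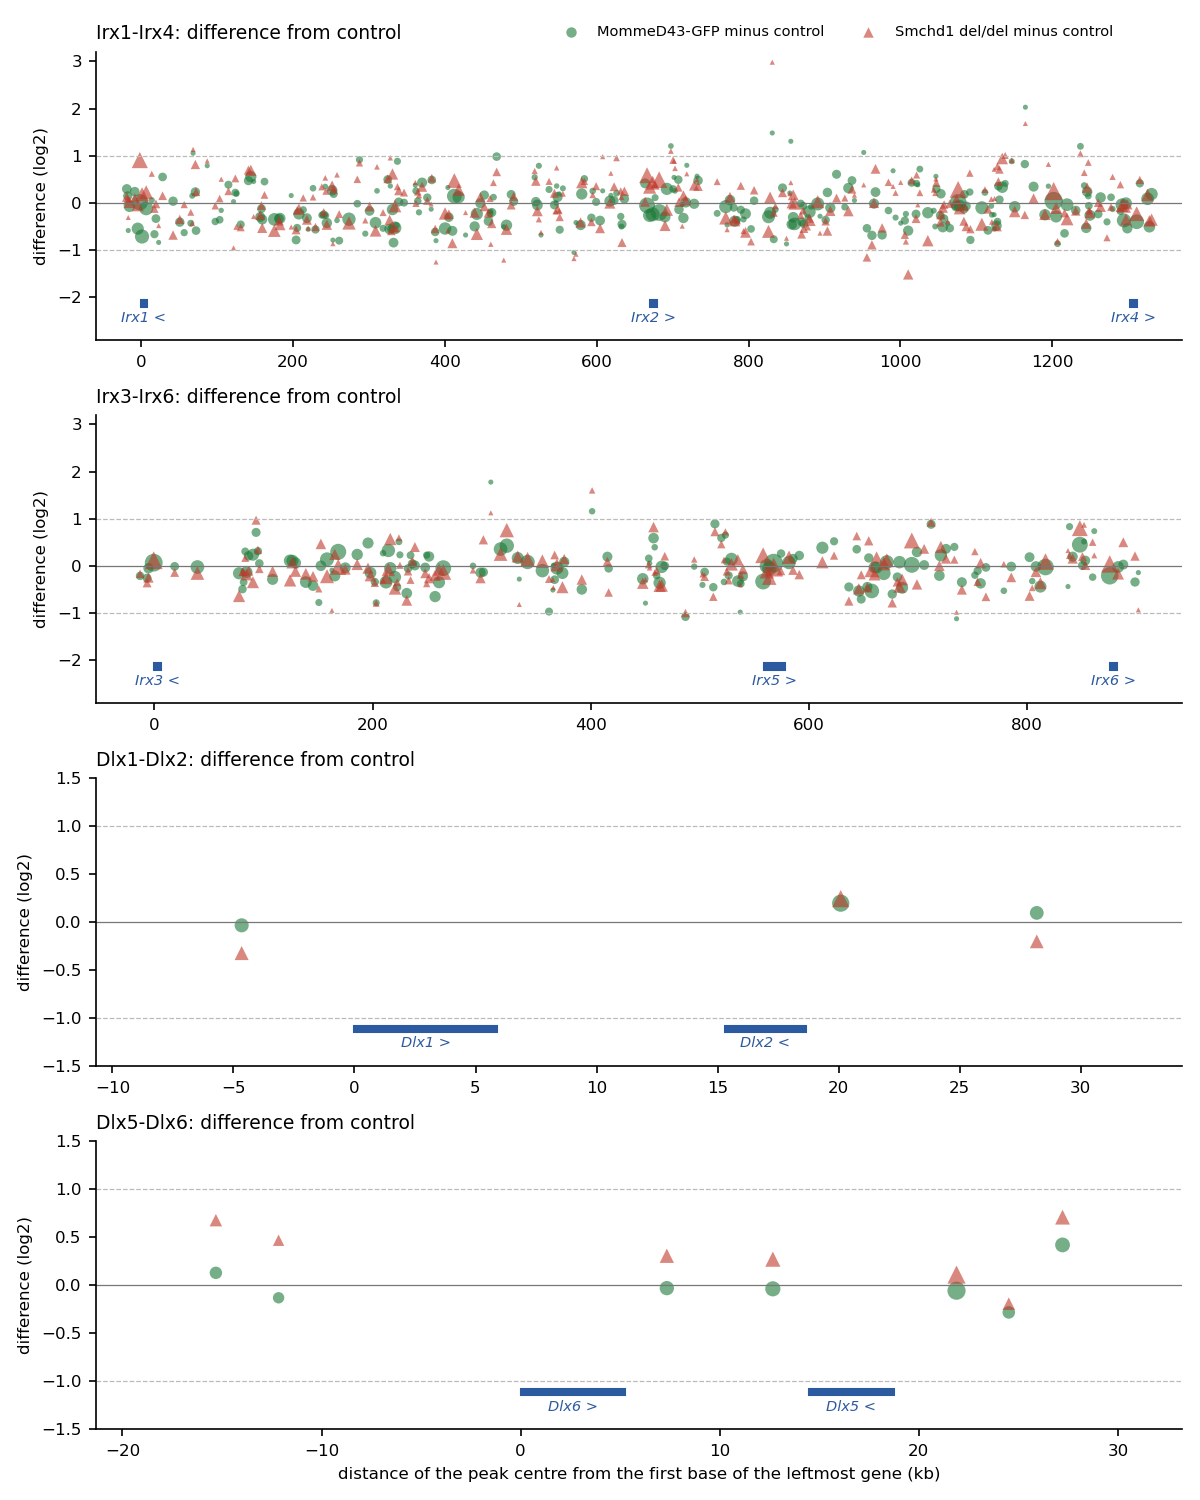
Difference from the Smchd1 GFP/GFP control (log2, y axis) at each peak against the distance of its centre from the first base of the leftmost gene in kb (x axis), with circles for MommeD43-GFP and triangles for Smchd1 del/del. Symbols grow with the mean level of the peak, dashed lines mark 2-fold and blue bars are genes. Large symbols reach 0.91 beside Irx1 in the null and 0.80 before Irx6, and the differences past 2-fold are nearly all small symbols.

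Differences of at least 2-fold were no more frequent in the 4 clusters than in the whole table and were nearly all at weak peaks. MommeD43-GFP was at least 2-fold above control at 9 of 458 peaks (7 in Irx1-Irx4, 2 in Irx3-Irx6), against 2.08% of all peaks, and at least 2-fold below at 3 (1 and 2), against 0.718%. The null was at least 2-fold above control at 8 peaks (6 and 2), against 3.31%, and below at 6, all in Irx1-Irx4, against 1.85%. MommeD43-GFP was at least 2-fold above the null at 2 peaks and below it at 2, all in Irx1-Irx4, against 1.26% and 1.08%. No Dlx peak differed by 2-fold in any comparison.

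A single one of these peaks was at or above the median level, an intergenic peak 292 kb before Irx4 (chr13:72967501-72968550). It had −0.07 in MommeD43-GFP and −0.99 in null, against 0.52 in control, from 47.0, 25.1 and 59.7 reads per library in MommeD43-GFP, null and control. Null minus control was −1.51 ± 0.23, and MommeD43-GFP lay between the null and control. The peak that differed most by ratio between MommeD43-GFP and control, of 300 bp (chr13:73122151-73122450), had −1.38 in MommeD43-GFP and −1.73 in null, against −3.41 in control. It rested on 18.9 and 15.1 reads per library in MommeD43-GFP and null, against 3.9 in control. The weakest member (chr13:72789001-72789300) had 6.6 reads per library in MommeD43-GFP and 19.0 in null, against 2.0 in control, too few to give a useful ratio.

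Other single homeobox genes were compared with the clusters by the distance between their pairs of median differences from control, over 20 genes and 3 genotypes. The nearest were Pax3 and Msx2 for Irx1-Irx4 (distances 0.016 and 0.018), Lhx8 and Emx2 for Irx3-Irx6 (0.027 and 0.041), and Prrx1 for Dlx5-Dlx6 (0.21). Prrx1 had 0.17 for MommeD43-GFP minus control and 0.31 for null minus control over 6 peaks.

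Genes that work with the members had pooled medians near 0, while single genes lay on both sides. Over 15 genes of the DLX network of the ventral forebrain, such as the transcription factor Gsx1 and the GABA-synthesis gene Gad1, 162 peaks had median differences of −0.01 for MommeD43-GFP minus control, 0.01 for null minus control and −0.05 for MommeD43-GFP minus null. MommeD43-GFP was at least 2-fold above control at 2 of the 162 and below at 2, against 2.08% and 0.718% of all peaks, and the null was above at 5 and below at none, against 3.31% and 1.85%. Among single genes, named here after their values were seen, Nkx2-1 had medians of 0.39 for MommeD43-GFP minus control and 0.84 for null minus control over 4 peaks, and Lhx6 had −0.27 and −0.53 over 4 peaks. Over 11 genes of signalling and patterning around the IRX factors, such as Shh and Pax6, 107 peaks had medians of 0.01, −0.02 and −0.02 in the same comparisons, and MommeD43-GFP and the null were at least 2-fold above control at 1 and 2 of them and below at none, beside the same shares of all peaks. Pax6, named in the same way, had medians of −0.17 for MommeD43-GFP minus control and −0.48 for null minus control over 7 peaks. Dlx3 and Dlx4, the remaining DLX pair listed, had 5 peaks with medians of −0.00, 0.01 and −0.05 and no 2-fold difference.

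Genes that neighbour the clusters were listed as well, and some of their 260 peaks lie inside the Irx3-Irx6 and Dlx1-Dlx2 regions. Their medians were −0.08 for MommeD43-GFP minus control, −0.06 for null minus control and 0.02 for MommeD43-GFP minus null. MommeD43-GFP was at least 2-fold above control at 4 of them and below at 1, against 2.08% and 0.718% of all peaks, and the null above at 5 and below at 6, against 3.31% and 1.85%. Sem1, a proteasome subunit gene beside Dlx5-Dlx6, had medians of −0.56 and −0.72 for MommeD43-GFP and null minus control over 6 peaks. These were the lowest of the 20 genes listed, and Sem1 was named after its values were seen. Other neighbours lay above 0 in both comparisons, such as Hat1 with 0.27 and 0.22 over 12 peaks.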

How the data were processed

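CTCF ChIP-seq was made from primary female NSCs, with 3, 2 and 3 libraries of MommeD43-GFP, Smchd1 del/del and control. Per the labels and the methods, reads were handled with Trim Galore 0.4.4, cutadapt 2.9, FastQC 0.11.8, Bowtie2 2.3.4.1, SAMtools 1.7 and R 4.2.0 on GRCm38, of which the labels name patch GRCm38.p5 and the methods another, extended by 180 bp, and peaks were called per genotype in SeqMonk and merged. Duplicate removal is not given in the sources used here. In the deposited table each value is a log2 count per M sequenced reads at a merged peak, which the authors averaged across a genotype's libraries.

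Differences of log2 values were taken with no test, as the columns are pooled. Library sizes were read from the steps between the lowest values (100% whole within 0.01, with 0 reads entered as 0.9) and gave the reads per library, as a geometric mean, and the counting error, which covers counting only. Reads in peaks were 34.6%, 34.8% and 34.5% of the MommeD43-GFP, null and control libraries. A promoter peak lies within 1 kb of a GENCODE M21 transcript start. Named peaks were, per cluster, the tallest, the highest and lowest difference among peaks not below the median level, those at the member genes' starts or nearest to them, those at least 2-fold apart and those with a core motif. The other peaks named beside the genes were chosen after their values were seen. Lists took gene bodies plus 10 kb. The likeness comparison for Dlx1-Dlx2, and the next gene for Dlx5-Dlx6, are not reported here. The members and lists were chosen with earlier results of these data known. Alternatives were other scalings, filters, flanks, pseudocounts and folds. Scripts ran under Python 3.11.15 with statsmodels 0.14.6, pandas 2.3.3 and numpy 2.4.6 and were tested on simulated data.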

Additional observations from a re-analysis of the deposited data

How the results depend on the processing

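No paired analysis was possible because each column pools the libraries of a genotype, and for the same reason no line could be left out and no other library normalization was run. Of 117 cluster medians under other settings, 113 stayed inside their interval. For Dlx1-Dlx2 and Dlx5-Dlx6, with 3 and 7 peaks, the interval was the whole range of the peaks and could hardly be left. The 4 medians that left their interval were all in Irx1-Irx4. For Irx1-Irx4, MommeD43-GFP minus null was −0.11 after quantile normalization, −0.13 with the trend on level removed and −0.11 when centred by GC content, and null minus control was −0.10 at peaks at or above the median level. No scaling moved the median of all peaks by 0.1, but several cluster medians are themselves smaller than that. With each column centred on its median, null minus control over all peaks went from −0.04 to 0.02. The same setting took it from −0.10 to −0.04 in Irx3-Irx6 and from −0.01 to 0.05 in Irx1-Irx4, both still inside their intervals. In Irx3-Irx6, MommeD43-GFP minus null changed sign under every other scaling, though inside its interval. It went from 0.037 to values between −0.00015 (quantile normalization) and −0.010 (centred by GC content). Dlx1-Dlx2 has no peak without flanks and so gave no value there. Single peaks were rerun only if named for their level, a gene start or a core motif. Of their differences under other scalings and pseudocounts, 314 stayed within the 95% limits of counting error and 8 moved beyond them. Another 2, which had exceeded those limits, changed direction. Smaller differences that changed sign were not counted as changes of direction. The peak upstream of Dlx2 turned to −0.041 for MommeD43-GFP minus control and −0.019 for null minus control when centred by GC content. The tall peaks just past Irx1, on either side of Irx2 and before Irx6 were not rerun under any other setting.

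The counts of 2-fold peaks in the 4 clusters depended on the setting, and 37 of 72 values were not within 1.5 times of those given. The 37 include every count at 1.5-fold and 4-fold, where the changed limit itself alters the count. Null above control was 13 with each column centred on its median and 3 after quantile normalization. MommeD43-GFP below control was 8 after quantile normalization, 8 with the trend removed and 6 when centred by GC content, and MommeD43-GFP below null was 5 in the first and 5 in the second of these. When peaks under the median level were dropped, the counts above and below were 0 and 0 for MommeD43-GFP against control, 0 and 1 for null against control, and 0 and 0 for MommeD43-GFP against null. With 0.1 rpm added they were 2 and 0, 3 and 1, and 0 and 1 in the same comparisons, and with 1 rpm added all were 0. At 1.5-fold they were 28 and 33, 53 and 44, and 25 and 36. At 4-fold they were 1 and 0, 1 and 0, and 0 and 0. The cause of these shifts was not tested, beyond the fewer reads of weak peaks that an added rpm or a level filter sets aside.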
